A study of Mus musculus with 2 samples.

Results

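The SOX transcription factors described here are 10 mouse genes of 4 classes. They are the SOXB factors Sox1, Sox2, Sox3 and Sox21, the SOXC factors Sox4, Sox11 and Sox12, the SOXD factors Sox5 and Sox6, and the SOXE factor Sox9. Their accessible chromatin was taken as every deposited ATAC-seq peak that overlapped the annotated gene body or the 50 kb on either side of it. These 10 windows held 6 of the 5735 peaks of the early library and 32 of the 22570 peaks of the late library on the autosomes, X and Y of mm10. ATAC-seq marks open DNA by the places where a transposase can insert sequencing adapters, and a peak is a stretch where inserted tags pile up above the surrounding level. The 2 libraries came from C57BL/6 mouse prostate tumor cells in a study of progression toward neuroendocrine prostate cancer (NEPC), a form of the disease with nerve and hormone-secreting cell features. The early library (W2) was made after tamoxifen treatment for 2 weeks and the late one (M6) after 6 months, and the sources used here do not give the engineered alleles of the mice, what the tamoxifen was for, or whether cells were cultured. With a single library per stage, differences described here have no replicate check and none was tested. Accessibility is not expression, and no RNA was analysed here.

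SOX proteins share the HMG box, a DNA-binding domain that sits in the minor groove and bends the double helix, and they usually act with a partner factor bound next to them. SOXB1 proteins (Sox1, Sox2 and Sox3) keep neural progenitors undifferentiated, Sox21 of the SOXB2 group counteracts them, and SOXC proteins act later, in differentiating neurons and in many embryonic and tumor tissues. SOXD proteins carry no transactivation domain of their own and modulate other SOX factors, among them Sox9, which takes part in prostate bud formation and in cartilage. SOX2 is well known in NEPC, where it has been tied to the switch from a luminal to a neuroendocrine state.

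The gene starts show the contrast among the members most directly, and the 250 bases before the start are shown for the 4 members with a peak over it in 1 library and for Sox2, which had none in either. They come from the RefSeq promoter table of GRCm38.p6, the assembly that mm10 names, which held 8 of the 10 members and lacked Sox3 and Sox9. Each is written 5′ to 3′ on the strand of the gene. Capitals mark the GC box GGGCGG, the site of SP and KLF factors, and the CCAAT box CCAAT, the site of NF-Y, on either strand (CCGCCC and ATTGG). The Sox1 stretch (chr8:12395269-12395518, plus strand) and the Sox21 stretch (chr14:118237031-118237280, minus strand) lay wholly under an M6 peak. Of the Sox11 stretch (chr12:27342719-27342968, minus strand), 206 bases lay under an M6 peak. Of the Sox4 stretch (chr13:28953700-28953949, minus strand), 241 bases lay under a W2 peak and 0 under an M6 peak. The Sox2 stretch is chr3:34649745-34649994, plus strand.
Sox1: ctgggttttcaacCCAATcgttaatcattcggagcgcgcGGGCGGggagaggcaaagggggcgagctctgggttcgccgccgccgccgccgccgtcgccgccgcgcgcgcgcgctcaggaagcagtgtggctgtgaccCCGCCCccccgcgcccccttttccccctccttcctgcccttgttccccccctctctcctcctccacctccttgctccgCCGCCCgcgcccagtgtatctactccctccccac
Sox21: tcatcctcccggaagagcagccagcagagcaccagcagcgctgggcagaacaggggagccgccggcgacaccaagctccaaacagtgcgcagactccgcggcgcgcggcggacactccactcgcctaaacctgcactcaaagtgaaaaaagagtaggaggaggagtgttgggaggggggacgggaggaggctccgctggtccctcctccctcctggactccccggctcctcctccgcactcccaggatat
Sox11: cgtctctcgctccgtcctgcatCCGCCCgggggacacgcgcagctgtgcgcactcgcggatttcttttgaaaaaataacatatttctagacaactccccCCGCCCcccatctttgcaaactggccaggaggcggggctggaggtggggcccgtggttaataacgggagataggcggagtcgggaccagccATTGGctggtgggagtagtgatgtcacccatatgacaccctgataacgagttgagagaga
Sox4: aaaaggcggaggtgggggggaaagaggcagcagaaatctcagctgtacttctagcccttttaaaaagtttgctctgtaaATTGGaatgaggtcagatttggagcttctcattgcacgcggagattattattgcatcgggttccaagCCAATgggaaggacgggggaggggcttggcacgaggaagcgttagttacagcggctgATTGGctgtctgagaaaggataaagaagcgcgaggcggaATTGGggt
Sox2: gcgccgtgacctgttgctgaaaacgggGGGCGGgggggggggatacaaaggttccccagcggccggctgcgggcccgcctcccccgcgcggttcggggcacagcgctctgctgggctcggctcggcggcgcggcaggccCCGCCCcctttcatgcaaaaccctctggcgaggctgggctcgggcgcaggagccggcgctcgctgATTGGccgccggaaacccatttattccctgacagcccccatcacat

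The composition of these stretches varied among the members. Sox2 had 27 CpG dinucleotides and 72.0% G and C in its 250 bases, with 2 GC boxes and 1 CCAAT box. Sox1 had 29 CpG, 71.2% G and C, 3 GC boxes and 1 CCAAT box, so the 2 genes were close in composition, with an M6 peak over the start of Sox1 and none over that of Sox2. Sox21 and Sox11 had 17 CpG each, Sox21 without either motif and Sox11 with 2 GC boxes and 1 CCAAT box. Sox4 differed from these, with 50.8% G and C, 11 CpG, no GC box and 4 CCAAT boxes. At least 4 CCAAT boxes were found in 1.02% of the 21263 promoter stretches of protein-coding genes, and at least 1 in 35.4%. At least 1 GC box was found in 42.6%. The sites that many SOX proteins prefer, searched as ACAAAG and ACAATG on both strands, were absent from these stretches of Sox1, Sox21, Sox11 and Sox4, and Sox2 had 1 ACAAAG. Over all 21263 stretches ACAAAG was found in 14.9% and ACAATG in 9.35%. A letter match in a window is a description and not a bound site. Of the 8 members in the table, Sox12 had the highest CpG count, 35 in 250 bases. Its stretch (chr2:152398047-152398296) lay under no peak in either library, the nearest being the one upstream of it. The stretch listed for Sox5 (chr6:143947107-143947356) lies inside the gene, away from the annotated start used in the other sections, and those listed for Sox6 also lie inside that gene. Among the 10103 promoter stretches with at least 11 CpG, 30.3% lay under a W2 peak and 61.8% under an M6 peak, counted with the first 50 bases after the start.

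More SOX windows had M6 peaks than W2 peaks. W2 peaks were found in the windows of 3 members, Sox4, Sox12 and Sox5, where 48.3% of the 21887 protein-coding genes had one in a window of the same rule. M6 peaks were found in the windows of 8 members, all but Sox2 and Sox3, against 74.4% of all genes. At 7 of the 10 members M6 had more peaks than W2, against 64.2% of all genes, and at 0 members it had fewer, against 2.07%. The count was equal at 3 members, against 33.8% of all genes, with 1 peak in each library at Sox4 and none at Sox2 and Sox3. Sox1, Sox21, Sox11, Sox6 and Sox9 had M6 peaks and no W2 peak, which was so for 27.1% of all genes, while 24.6% of all genes had no peak in either, as Sox2 and Sox3 did. The median difference, M6 minus W2, was 2 peaks per window over the members and 1 over all genes. The SOX shares for M6 peaks and for more peaks in M6 were thus near those of all genes.

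The M6 list is the longer one, so the windows were also counted with equal numbers of peaks, 5735 from each list taken from the top by −log10 q. The −log10 q is the significance of a peak over its local background that the peak caller of the authors assigned, and this kept M6 peaks of 10.8 and above. With equal numbers the windows held 6 peaks of each library. M6 then had more peaks at 2 members (Sox5 and Sox6), against 14.8% of all genes, and fewer at 2 (Sox4 and Sox12), against 21.8%. Sox1, Sox21, Sox11 and Sox9 had none left in either library, because their M6 peaks were all below that value. With this ranking the surplus of M6 peaks over the whole set was absent, and ranked by fold in place of −log10 q the equal numbers gave 6 W2 and 9 M6 peaks. By −log10 q, 4 M6 peaks of Sox5 and 1 of Sox6 ranked among the 5735 strongest.

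**Figure D1:**
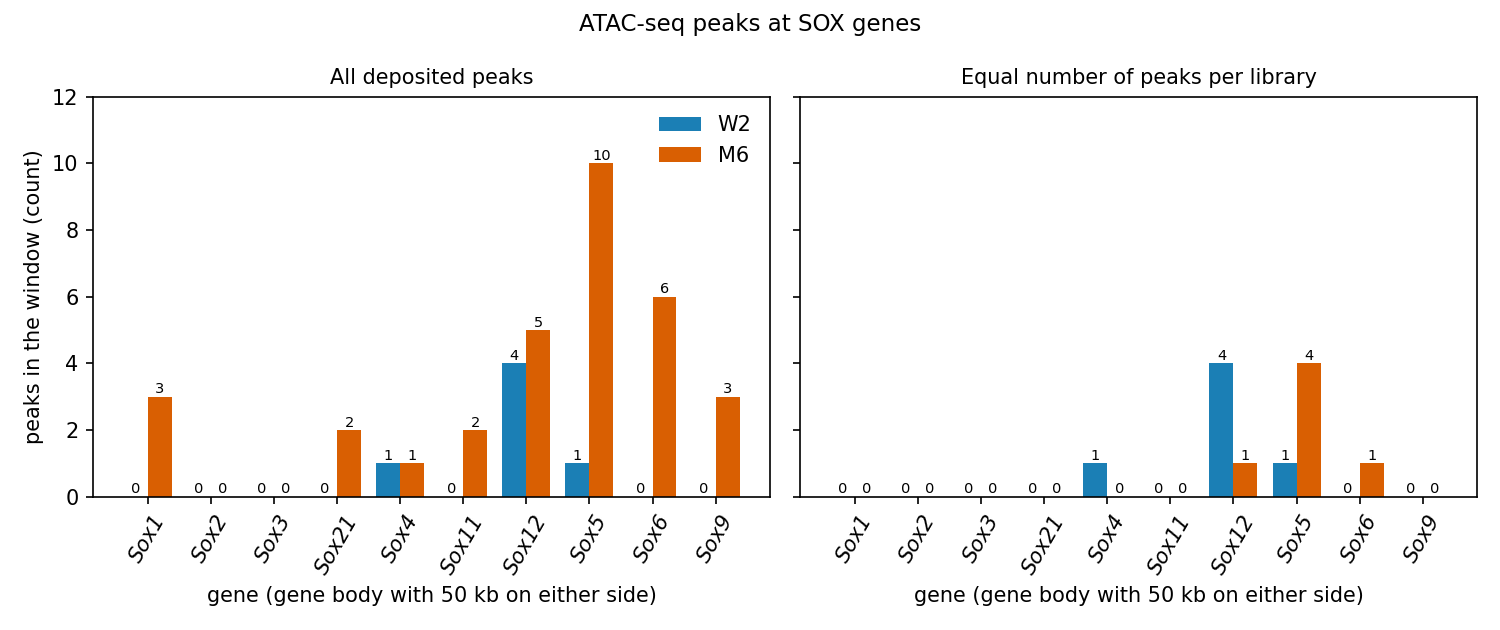
Number of peaks (vertical axis, count) in the window of each SOX gene (horizontal axis) in W2 (blue) and M6 (orange), with all deposited peaks at left and equal numbers of peaks at right; bars are single counts from 1 library each and carry no error. With all peaks the windows held 6 W2 and 32 M6 peaks, and with equal numbers 6 of each.

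The SOXB genes had no W2 peak in any of their 4 windows and 5 M6 peaks, at Sox1 and Sox21. Sox1, which maintains neural progenitors, had 3 M6 peaks. The strongest lay over its start (chromosome 8, 12395052 to 12395636). It had a −log10 q of 8.69, a fold of 4.68 over local background, and 27 tags at its summit over a background of 4.98 tags. The summit sat 30 bp past the annotated start. A weak peak followed 1.35 kb past the end of the gene (12400906 to 12401398, −log10 q 2.87, 16 tags) and another 33.1 kb past it (12432644 to 12432896, −log10 q 5.14, 16 tags). All 3 also lay within Sox1ot, a long noncoding RNA gene that overlaps Sox1, and the data do not tell which of the 2 genes a peak belongs to. The nearest W2 peak was 272.5 kb from Sox1.

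Sox21, the SOXB2 factor that opposes SOXB1 activity, had 2 M6 peaks of similar strength. The peak over its start (chromosome 14, 118236737 to 118237288) had a −log10 q of 10.0, a fold of 4.84 and 30 tags over 5.40. It also overlapped the noncoding gene Gm4675. The other lay 2.57 kb past the end of the gene (118230023 to 118230667, −log10 q 10.2, fold 4.70, 32 tags). The M6 pattern of Sox1 and Sox21 was thus a peak of above 500 bp on the start and another shortly past the end of a short gene. Both starts stayed below the −log10 q of 10.8 of the equal-number list.

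Sox2, the stem cell and neural progenitor factor, had 0 peaks in either library within 50 kb. The nearest M6 peak was 160.8 kb from the gene (chromosome 3, 34813260 to 34813588, −log10 q 4.67) and the nearest W2 peak 849.6 kb from it. Sox3, its X-linked relative, also had 0 peaks, with the nearest M6 peak 486.4 kb and the nearest W2 peak 4293 kb away. Within 500 kb of either side of the gene, a window chosen after the data were seen, Sox2 had 0 W2 and 4 M6 peaks and Sox3 0 and 1, against medians of 4 and 13 over all protein-coding genes. Sox1 had 1 and 23 and Sox21 4 and 18 in that wider window. The lowest peaks held 12 tags in W2 and 10 in M6, at the lowest background, and where the background is higher a region can hold more tags without being called. No listed peak therefore does not show closed chromatin.

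The SOXC genes had 5 W2 and 8 M6 peaks, and Sox4 was the one member whose start had a peak in W2 and none in M6. Sox4, a factor of progenitors and of many carcinomas, had its W2 peak at chromosome 13, 28953708 to 28953948, with the summit 131 bp before the start. That peak had a −log10 q of 8.71, a fold of 5.35 and 25 tags over 3.86, and 25.2% of the W2 list was stronger. The single M6 peak of the window lay 5.67 kb further upstream (28959613 to 28959870), with a −log10 q of 8.40, a fold of 4.56 and 27 tags over 5.14. Both peaks overlapped the noncoding gene Gm46405. Over all genes, 4033 had a W2 peak within 1 kb of a gene end, and 142 of these (3.52%) had no such M6 peak, which is 0.649% of all genes. No other peak lay within 50 kb of Sox4 in either library, and the next M6 peak was 80.8 kb from the gene.

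Sox11, which drives neuronal differentiation programs, had 0 W2 and 2 M6 peaks, with the reverse pattern at its start. Its start peak (chromosome 12, 27342658 to 27342924) reached 28 tags over a background of 4.80, a fold of 5 and a −log10 q of 9.75. The second lay 14.4 kb upstream of the start (27357099 to 27357848) in the noncoding gene Gm30855, had a −log10 q of 7.93 with 21 tags, and at 750 bp was the widest of all peaks in the SOX windows. The nearest W2 peak was 483.6 kb away. Sox4 and Sox11, close relatives with largely overlapping roles, thus had start peaks in opposite libraries. The pileups, 25 tags in W2 and 28 in M6, are not scaled to each other. A gene-end peak in M6 and not W2 was found at 21.9% of all genes, and the reverse at 0.649%. The Sox11 start peak was not among the equal-number M6 peaks.

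Sox12, the weakest activator of the SOXC class, was the one member whose peaks were shared. Its window had 4 W2 and 5 M6 peaks and is also the most crowded, with 4 other protein-coding genes (Trib3, Nrsn2, Zcchc3 and 6820408C15Rik) where the median member had 0. The peak nearest its start lay 0.702 kb upstream in W2 (chromosome 2, 152398748 to 152399104) and 0.684 kb in M6 (152398730 to 152399196). The −log10 q was 9.62 for the W2 peak, at a fold of 5.17, and 11.52 for the M6 peak, at a fold of 4.72. The pileup was 29 tags (exact Poisson 95% interval 19.4 to 41.6) and 36 tags (25.2 to 49.8). The strongest W2 peak of all SOX windows lay 8.30 kb upstream of Sox12 (152406164 to 152406515), 5.44 kb from the nearest gene end, that of Zcchc3. Its −log10 q was 17.5, and that of its M6 counterpart (152406149 to 152406407) 8.57, with 34 tags (23.5 to 47.5) and 20 tags (12.2 to 30.9). Only 1.97% of the W2 list was stronger, against 36.4% of the M6 list for its counterpart. The remaining shared peak was at the end of the zinc finger gene Zcchc3 and within 1 kb of 6820408C15Rik, with 17 tags (9.90 to 27.2) and 14 tags (7.65 to 23.5). The pileup intervals of the libraries overlapped at each of the 3 sites. They cover counting error only, and since read depth is unknown the values of the libraries are set side by side without reading a change from them.

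The other peaks of the Sox12 window were in 1 library each. W2 alone had a weak peak outside genes except the noncoding Gm14164, 8.10 kb from Nrsn2 (152360456 to 152360660, −log10 q 3.70). M6 alone had a peak inside Sox12 (152396297 to 152396561, −log10 q 5.09, 26 tags over 7.04). It also had one at the end of Trib3, a stress-induced pseudokinase gene (152343873 to 152344274, −log10 q 10.7, 24 tags). The background of 7.04 tags was the highest of any peak in the SOX windows, and the median M6 peak had 3.52.

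**Figure D2:**
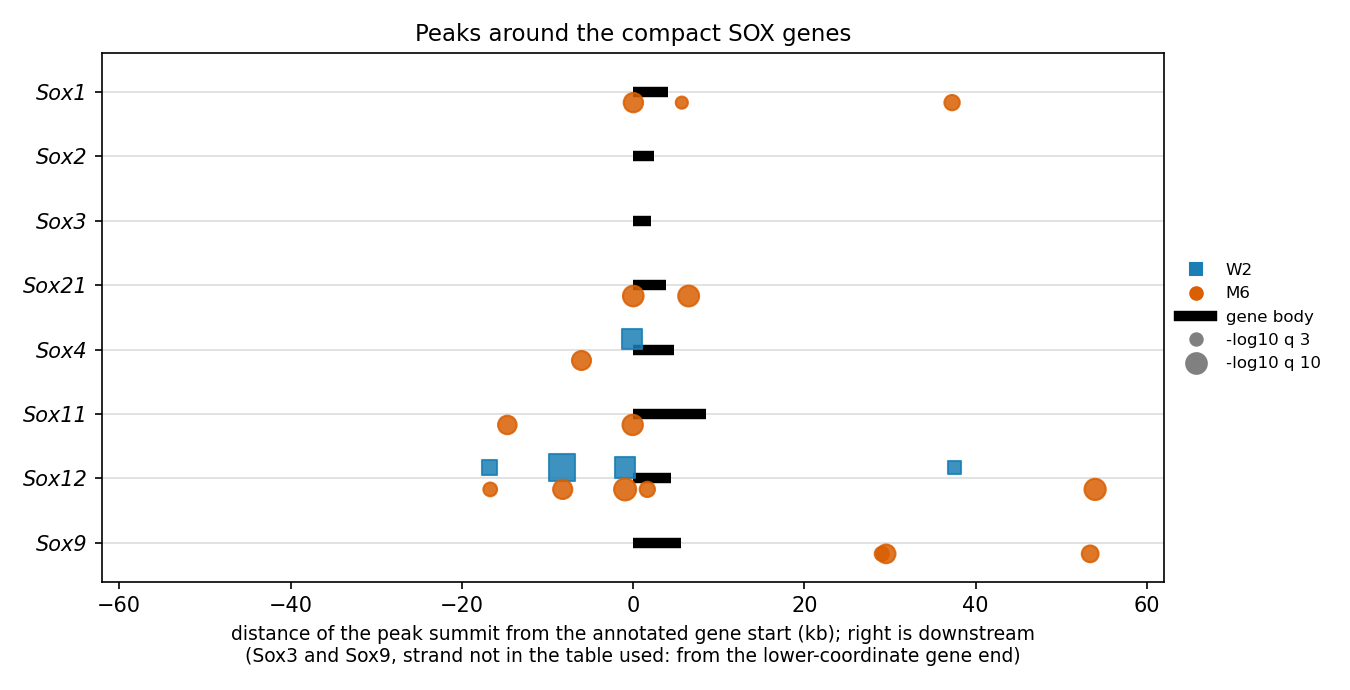
Position of each peak summit (horizontal axis, kb from the annotated gene start, gene bodies as black bars) at the 8 SOX genes under 10 kb, with W2 peaks as blue squares above the line and M6 peaks as orange circles below it, sized by −log10 q. Sox1, Sox21 and Sox11 have an M6 peak on the start and no W2 peak, Sox4 has a W2 peak there, Sox12 has both upstream of it, and Sox2 and Sox3 have none.

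Peaks within 1 kb of a member's own gene end were thus found at 2 members in W2 (Sox4 and Sox12) and at 5 in M6 (Sox1, Sox21, Sox11, Sox12 and Sox5). The same was true of 18.4% of all genes in W2 and 39.7% in M6. In M6 without W2 it was found at 4 members (Sox1, Sox21, Sox11 and Sox5), against 21.9%. With equal numbers of peaks the members were 2 in W2 and 1 in M6, Sox12, against 18.4% and 16.5% of all genes. No test was made of these differences in share.

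The SOXD genes had 1 W2 peak and 16 M6 peaks, and nearly all of them lay inside the genes. Sox5 and Sox6 span 953.9 and 569.9 kb, and a long window collects more peaks, so density is given beside each count. Sox5, which tunes the timing of neuron and oligodendrocyte differentiation, had 10 M6 peaks and 1 W2 peak. At 9.49 M6 peaks per Mb its window was less dense than the 11.55 per Mb of all gene windows joined, and at 0.949 W2 peaks per Mb it was less dense than the 3.22 per Mb of W2. The 3 strongest M6 peaks of all SOX windows lay in the middle to far portion of Sox5, between 627.0 and 740.2 kb from its start. They were at chromosome 6, 144056506 to 144057227 (−log10 q 13.9, fold 6.35, 31 tags), 144155088 to 144155525 (13.5, 6.55, 29 tags) and 144041948 to 144042401 (13.1, 5.81, 32 tags). Another of this strength lay 199.8 kb past the start (144582307 to 144582669, −log10 q 11.2, fold 6.57, 23 tags). These 4 were the Sox5 peaks in the equal-number list, and one at 143981120 to 143981372 fell just short (−log10 q 10.69).

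The start of Sox5 had a weak M6 peak (144781604 to 144781913), 0.489 kb inside the gene, with a −log10 q of 4.43 and 15 tags. The other M6 peaks of Sox5 had −log10 q values between 2.06 and 5.23, and 1 of them, 32.6 kb upstream of the start, was outside the gene. The lone W2 peak (144224218 to 144224417) had a −log10 q of 6.27, a fold of 5.05 and 19 tags over 2.96. It lay 6.44 kb from the nearest M6 peak (144217566 to 144217778, −log10 q 3.97) and overlapped none. Both were within the noncoding gene Gm38531, which lies in Sox5. None of the strong M6 peaks of Sox5 was closer than 68.7 kb to a W2 peak. Exons, introns and UTRs are not resolved by the gene table used, so these peaks are described only as inside the gene.

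Sox6, which works with Sox5 in cartilage and sets muscle fiber type, had 0 W2 and 6 M6 peaks, all inside the gene and none within 1 kb of its ends. The strongest (chromosome 7, 115580500 to 115580824) lay 460.1 kb from the start with a −log10 q of 12.1, a fold of 6.63 and 25 tags over 2.92. Next were 115879735 to 115879968 (−log10 q 10.3, fold 6.30, 22 tags), 115564855 to 115565444 (7.93, 5.21, 21 tags) and 115734246 to 115734532 (7.74, 5.48, 19 tags). The remaining 2 were weak, at 115952825 to 115953024 (4.67, 15 tags) and 115669208 to 115669409 (2.66, 12 tags). The promoter table lists 6 starts for Sox6, and none lay under a peak of either library. The density of M6 peaks was 8.96 per Mb, as low as that of Sox5. A peak pair just beyond the window, 52.3 kb from Sox6, was present in both libraries, where its −log10 q was 12.5 (W2) and 15.1 (M6).

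Among the 227 protein-coding genes of 500 kb or longer, 88.1% had more peaks in M6 than in W2, as both SOXD genes did. A W2 peak was found in the windows of 32.2% of these long genes and an M6 peak in 90.3%, and their median was 0 W2 and 5 M6 peaks. Sox5 was in the upper range, since 35 of the 227 had at least as many M6 peaks, and 26 of the 227 (11.45%) had at least 10 M6 and at most 1 W2 peak. For Sox6 the matching number, at least 6 M6 and no W2 peak, was 60 of 227 (26.4%). Over all 21887 genes 57 matched or passed Sox5 in this way and 278 Sox6.

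**Figure D3:**
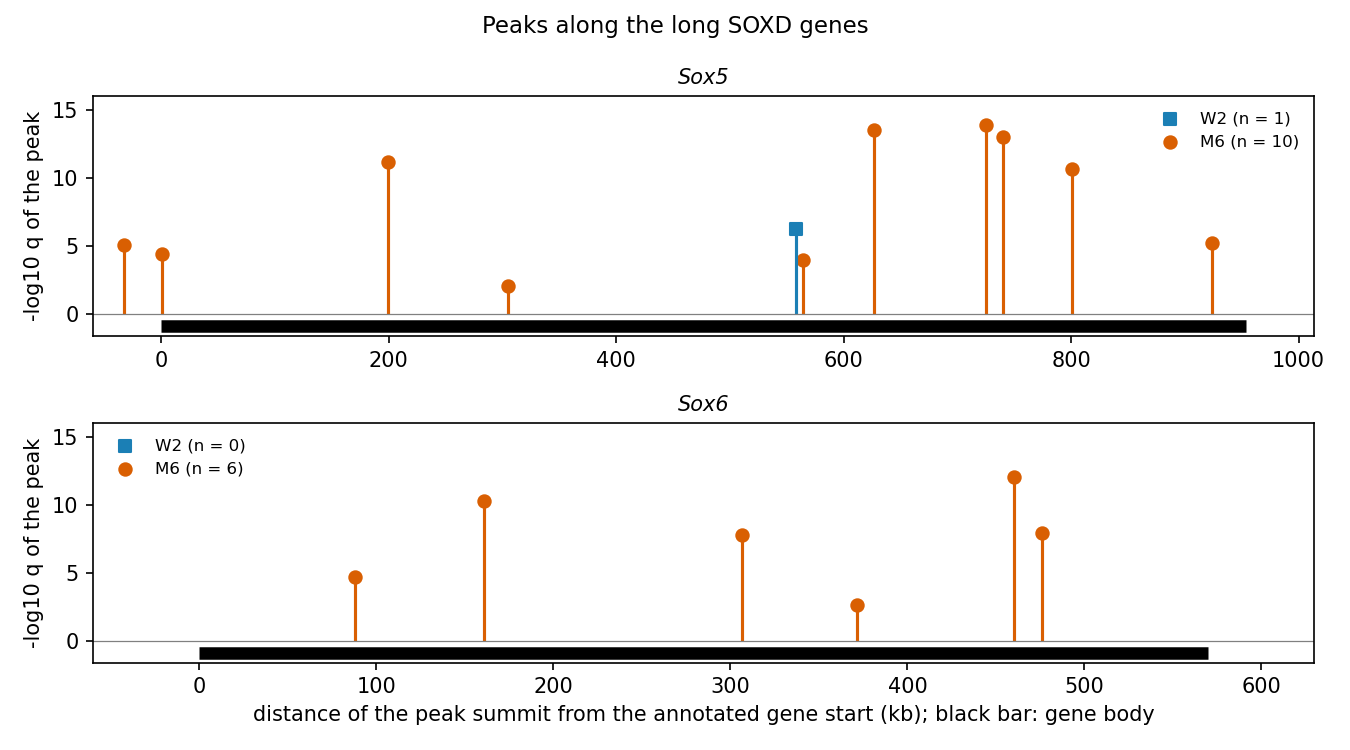
Peaks along Sox5 and Sox6 (horizontal axis, kb from the annotated gene start, black bar the gene body), with the height of each line the −log10 q of the peak, W2 in blue and M6 in orange. Sox5 has 1 W2 and 10 M6 peaks, the strongest between 627.0 and 740.2 kb, and Sox6 has 6 M6 peaks and none at its start.

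Sox9, the SOXE factor of prostate buds, cartilage and many stem cell compartments, had 0 W2 and 3 M6 peaks, and none at the gene itself. It is known for enhancers spread over very long distances. The 3 peaks lay beyond the gene end of higher coordinate, the strand of Sox9 not being in the table used. A pair at chromosome 11, 112811140 to 112811339 (−log10 q 4.21, 15 tags) and 112811583 to 112811837 (8.12, fold 5.50, 20 tags) lay 23.4 and 23.8 kb from the gene. The last, at 112835389 to 112835756 (6.32, fold 4.85, 18 tags), lay 47.6 kb from it, close to the edge of the window. The nearest W2 peak was 223.2 kb from the gene. Within 500 kb Sox9 had 4 W2 and 12 M6 peaks, the M6 count being close to the median of 13 over all genes.

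Most of the SOX genes had an isolated position, and Sox12, with 4 other protein-coding genes in its window, did not. Of the 10 windows, 7 held no other protein-coding gene, against 11.3% of all protein-coding genes, whose windows held a median of 3 others. Of the 32 M6 peaks 2 were within 1 kb of an end of another gene, and of the 6 W2 peaks 1. All of these lay in the Sox12 window, and no matching share over the windows of all genes is given here. This distance rule does not tell which gene a peak belongs to. Among the 800 protein-coding genes under 10 kb with no other protein-coding gene in the window, 8.25% had a W2 peak in the window and 22.9% an M6 peak. Of the 6 SOX genes of this kind (Sox1, Sox2, Sox3, Sox4, Sox11 and Sox9), 1 had a W2 peak and 4 an M6 peak. M6 peaks without any W2 peak were found at 3 of the 6 and at 15.4% of the 800. A gene-end peak was found at 1 of the 6 in W2 and 2 in M6, against 4.12% and 12.1% of the 800. These members were not chosen at random and their number is small, so the shares are set side by side without a test.

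The SOX windows held 3 sites with a peak in both libraries. Peaks overlapping by at least 1 bp were counted as shared. Of the 6 W2 peaks 3 had an M6 counterpart (50%, exact binomial 95% interval 11.8 to 88.2%) and 3 had none, and over the whole W2 list 19.5% had none. Of the 32 M6 peaks 3 had a W2 counterpart (9.38%, 1.98 to 25.02%) and 29 had none, and over the whole M6 list 79.8% had none. All 3 shared sites lay in the Sox12 window, and outside it 0 of 2 W2 and 0 of 27 M6 peaks were shared. Over the whole lists the shared percentage was 80.5% in W2 and 20.2% in M6, each within its interval. The intervals cover counting error only and treat peaks as independent, which peaks of 1 window need not be. With 6 peaks the W2 interval is also wide, so no likeness to the whole lists is read from them.

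The M6 peaks of the SOX windows were of ordinary strength for their library. Their −log10 q had a median of 8.02 and ran from 2.06 to 13.9, against a median of 6.92 over all M6 peaks, and 19 of the 32 were stronger than that median. Their median pileup of 21 tags equalled that of all M6 peaks. Of the 29 without a W2 counterpart, 1 had fewer tags than the lowest W2 peak (12), and 13 had fewer than the W2 median of 21. Tags of the libraries are not scaled to each other, and the same counts over all M6 peaks are not given here. Which of the 29 sites could have been listed in W2 is therefore not known. Local background, the tag density around the peak, varied among the peaks. At the M6 start peaks of Sox1, Sox21, Sox11 and at the upstream peak of Sox12 it was 4.98, 5.40, 4.80 and 6.84 tags, and at the start peak of Sox5 2.78. It was 6.02 at the peak past the end of Sox21, 5.14 upstream of Sox4 and 4.68 at a strong peak inside Sox5. At the 4 strongest Sox6 peaks it was 2.92, 2.65, 3.22 and 2.65, near or at the lowest value of the library, 2.65. A peak with more tags could thus have a lower fold, as at the start of Sox21 (30 tags, fold 4.84) beside the strongest peak of Sox6 (25 tags, fold 6.63). Annotated long noncoding RNA genes overlapped 8 of the 32 M6 and 3 of the 6 W2 peaks, against 12.9% and 13.2% of all peaks.

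**Figure D4:**
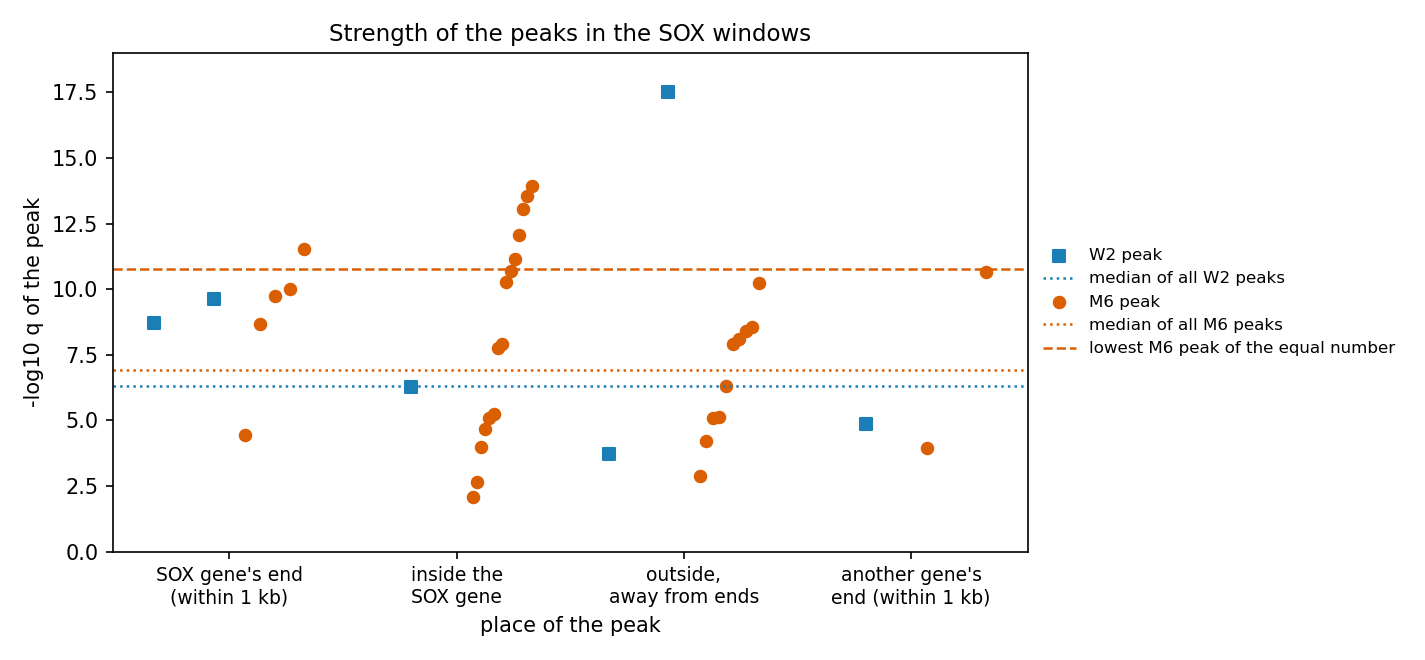
The −log10 q (vertical axis) of each peak in the SOX windows by its place (horizontal axis), W2 as blue squares and M6 as orange circles, with dotted lines at the medians of all peaks (6.30 in W2, 6.92 in M6) and a dashed line at 10.8, the lowest M6 value of the equal-number list. Of the M6 peaks, 5 inside Sox5 or Sox6 and the one upstream of Sox12 lie above the dashed line, as does 1 W2 peak, also upstream of Sox12 (17.5).

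At none of the other 10 genes of the SOX family did a peak lie at a gene end, against 18.4% of all genes in W2 and 39.7% in M6. The windows of these 10 held 7 W2 and 25 M6 peaks. M6 had the higher count at 6 genes, against 64.2% of all genes, and the lower at 1, Sox7, an endothelial factor (1 W2 and 0 M6 peaks). Sox10, the factor of glia and neural crest, had 1 and 2 peaks, Sox17 0 and 1, and Sox14 and Sry none. The median difference, M6 minus W2, was 1 peak per window, as over all genes. Of 12 factors known to act with SOX proteins, 1 had a peak at a gene end, in both libraries, against the same 18.4% and 39.7%. It was Pou2f1, a ubiquitous octamer-binding POU factor (−log10 q 4.12 in W2 and 23.5 in M6). More M6 peaks were found at 6 of the 12 factors and fewer at 1, Tcf7l2 (2 W2 and 0 M6 peaks), against 64.2% and 2.07% of all genes. The median difference was 0.5. With equal numbers of peaks the direction turned in both lists, to 7 W2 and 4 M6 peaks for the other SOX genes and 8 and 3 for the partners. It also turned over all genes, where M6 then had more peaks at 14.8% and fewer at 21.8%. Of the neural POU partners of Sox2, Pou3f2, Pou3f3 and Pou3f4 had 0 peaks and Pou3f1 had 1 in each library. Over all genes, 24.6% had no peak in either library. Pou3f3 and Pou3f4 are under 10 kb with no other protein-coding gene in the window, and 22.9% of such genes had an M6 peak.

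Genes known as SOX targets had the higher count in M6 at most genes. Of 14, 12 had more peaks in M6 and 1 fewer, Stmn2 (1 W2 and 0 M6), against 64.2% and 2.07% of all genes. The target windows held 9 W2 and 40 M6 peaks, with a median difference of 2 against 1 over all genes. Gene-end peaks were at 1 of the 14 in W2 and 4 in M6, against 18.4% and 39.7% of all genes. Those in M6 were at Tubb3, a neuronal tubulin and target of SOXC factors (−log10 q 9.12), Stmn1, a tubulin-binding protein (11.04), Lgr5, a Wnt-linked stem cell receptor (5.34), and Egfr, the receptor of epidermal growth factor (6.32), the last of which had one in W2 too (3.17). With equal numbers of peaks the target windows held 9 W2 and 7 M6 peaks, which turned the direction. Over all genes M6 then had more peaks at 14.8% and fewer at 21.8%. A gene-end peak was left at 1 target in each library, against 18.4% of all genes in W2 and 16.5% in M6. Dcx, a neuroblast microtubule protein, had 0 peaks in either library.

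Markers of the labelled cell type and of other cells were counted in the same way. Of 9 luminal epithelial markers, 2 (Cdh1 and Epcam) had a W2 peak at a gene end and 4 an M6 peak (also Cldn4 and Krt8). The window of Hoxb13, a defining prostate factor, held 0 peaks. Of 8 neuroendocrine markers 0 had such a peak in W2 and 3 in M6 (Chgb, Eno2 and Ncam1), where all genes had 18.4% and 39.7%. With equal numbers of peaks the luminal counts were 2 in W2 and 0 in M6 and the neuroendocrine counts 0 in both. The shares of all genes were then 18.4% in W2 and 16.5% in M6. The window of Foxa2 held 0 peaks. Basal, leukocyte, endothelial and fibroblast markers had 0 gene-end peaks in both libraries. Whether cell types other than tumor cells contributed to the SOX peaks was not tested.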

How the data were processed

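ATAC-seq was measured in 2 libraries, W2 and M6. The submitters' processing notes name Trim Galore (0.5.0), Bowtie2, SAMtools (1.4), deepTools and the build mm10. The peak caller, its threshold, duplicate removal and any transposase offset correction are not given in the sources used. The authors deposited 1 peak list per library, with nothing pooled. Which list is W2 and which M6 follows GEO's listing of each under its sample, with no check of its own in the data. Each holds the interval and summit, a score (10 times the −log10 q to within 1, not used), the fold over local background as a linear ratio, and −log10 p and −log10 q. Deposited values were used to rank and filter peaks only within their own list, and where values of both libraries stand side by side they are not scaled to each other. Peaks on other sequences were left out (30 in W2, 24 in M6).

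No read depth was given. Summit pileup and background were recovered from the fold, as (pileup + 1)/(background + 1), and the −log10 p, as a Poisson upper tail. This gave a whole pileup for 100% of peaks within 0.001 of the deposited −log10 p, and for 100% of 500 simulated peaks. The lowest background was 2.96 tags in W2 and 2.65 in M6.

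Genes, 21887 protein-coding, and promoters came from RefSeq tables of GRCm38.p6 (pandas 2.3.3, SciPy 1.17.1). A gene-end peak lies within 1 kb of either annotated end. All 10 members were named, with the strongest peak of each library and, in windows of 8 or fewer peaks, all of them. Genes of the other lists were named where they had a gene-end peak, and the few others after their values were seen. The members and lists were chosen with earlier results of these data known. Some marker genes are not reported here. With 1 library per time point no test was made. Alternatives were equal numbers of peaks, a −log10 q of at least 5, other windows and gene-end limits, and other rules for shared peaks.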

Additional observations from a re-analysis of the deposited data

How the results depend on the processing

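Most counts depended on the length of the M6 list. With equal numbers of peaks ranked by −log10 q, the windows held 6 M6 peaks in place of 32, M6 had more peaks at 2 members in place of 7, 1 member in place of 5 had an M6 gene-end peak, and 5 M6 peaks in place of 29 had no W2 counterpart. Ranked by fold these were 9, 2, 0 and 8. The W2 counts were the same, since all 5735 W2 peaks were kept. Windows of 500 kb, chosen after the data were seen, held 29 W2 and 130 M6 peaks, and at all 10 members M6 had the higher count. Over all protein-coding genes the medians of that window were 4 W2 and 13 M6 peaks. The share of all genes with a higher M6 count in it is not given here. The other 25 of 35 recomputed counts were within 1.5 times the reported ones. With a −log10 q of at least 5 the windows held 4 W2 and 24 M6 peaks. No paired analysis was possible because each time point had 1 library, and for the same reason no replicate could be left out. Read depth is unknown, so its effect on the lists was not tested. The W2 list holds no site with fewer than 12 tags and the M6 list none with fewer than 10.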
